A study of Mus musculus with 6 samples.

Results

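The genes of the proteasome, the protease complex that degrades ubiquitin-tagged proteins, were examined in B16F10 cells, a pigmented mouse melanoma line of C57BL/6 origin. Members were the genes whose symbol begins with Psma, Psmb, Psmc, Psmd, Psme, Psmf or Psmg, leaving out the interferon-inducible catalytic subunits Psmb8, Psmb9 and Psmb10. This rule took 47 of 16315 genes. Psmc3ip, a recombination factor, and Psme3ip1, a binding partner of the Psme3 product, entered by name alone and are not subunits.

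Vehicle cells (3 libraries) were given 0.05% DMSO. The other 3 libraries came from cells given SAS, abbreviated thus in the labels without its full name, at 500 (unit written μm) over 24 h. The cystine importer xCT and its inhibition are the subject of the series. Column names carry 24 h for SAS and 0 h for the other libraries, which were matched to vehicle by elimination, while the protocol describes a 24 h incubation for both. A day of culture and the compound therefore cannot be told apart if 0 h means cells taken before incubation. Values are FPKM, fragment counts scaled by transcript length and library size. Levels can therefore be set side by side between genes, within limits of annotation and shared reads that are unknown here. The fragments behind each value are unknown. Whether libraries of a group are separate cultures is not labelled; p-values therefore reflect library-to-library spread alone, and this may be technical. All 8 melanocyte lineage markers examined had a mean of at least 1 FPKM, with summed levels of 7602 to 8567 FPKM in vehicle and 8948 to 10887 FPKM in SAS. Summed markers of other cell types, as far as analysed here, reached at most 0.02 FPKM for leukocytes (1 of 5 markers), 0.05 FPKM for endothelium (2 of 3), 0.21 FPKM for epithelium (3 of 4) and 1.41 FPKM for fibroblasts (3 of 4).

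The proteasome consists of a barrel-shaped core particle and a regulatory particle that caps it. In the core, outer rings of alpha subunits gate the entry and inner rings of beta subunits hold the proteolytic sites. The regulatory particle binds ubiquitin chains, removes them, and unfolds the substrate with a ring of ATPases. Dedicated chaperones assemble both particles, and other activators can replace the regulatory particle at the ends of the core. In mammalian cells the transcription factor NRF1 (Nfe2l1), paired with small MAF proteins, raises subunit genes together when proteasome activity is blocked, and the related factor NRF2 (Nfe2l2) has been reported to raise some of them.

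Proteasome genes differed little between SAS and vehicle. Of the 47 members, 45 reached the mean of 0.5 FPKM required for testing, and 7 rose and 3 fell at a limma adjusted p below 0.05 (Benjamini-Hochberg over all 10615 genes tested). That is 15.6% higher and 6.67% lower, beside 18.9% and 18.5% of all genes tested (37.4% in either direction). The genes that rose were Psmb4 of the core, Psmc2, Psmd1, Psmd2, Psmd3 and Psmd11 of the regulatory particle, and the inhibitor gene Psmf1. Those that fell were the activator genes Psme3 and Psme4 and the assembly chaperone gene Psmg1. The members' median log2 fold change was 0.01, beside -0.01 over all genes tested, and their median absolute log2 fold change was 0.10, beside 0.15. A difference of 1.2-fold or more, on the log2(FPKM + 1) scale, was reached by 2 of 45 members (4.44%), beside 25.4% of all genes tested. Groups did not overlap for 10 members higher in SAS and 5 lower, beside 24.5% and 24.9% of all genes tested. Members were also more abundant than most genes, with a median vehicle level of 104.8 FPKM beside 10.1 FPKM; the part of level in these shares was not tested.

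**Figure D1:**
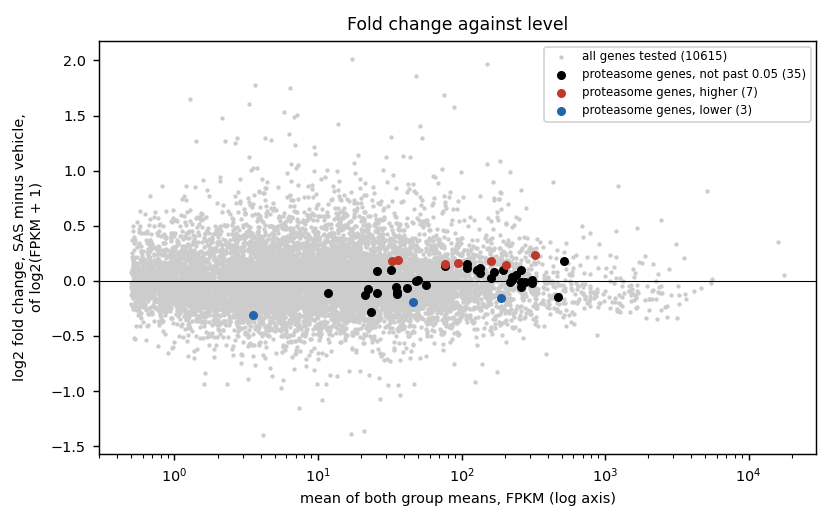
Fold change of every gene tested (grey) and of the 45 proteasome genes tested (coloured) against the mean level in FPKM, on a log axis. The proteasome genes lie between log2 fold changes of -0.31 and 0.23, while all genes span -1.40 to 2.01.

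**Figure D2:**
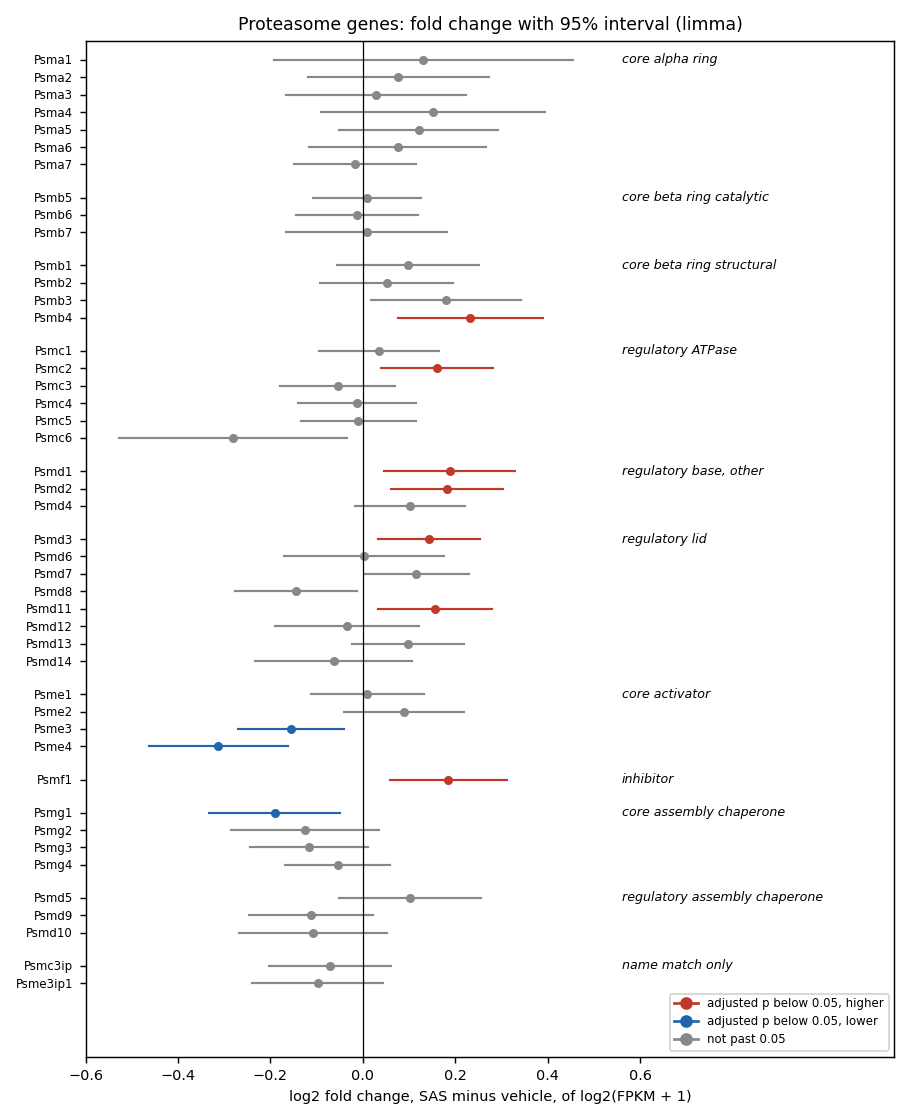
Log2 fold change of each proteasome gene, SAS minus vehicle, of log2(FPKM + 1), with its 95% limma interval, grouped by role. Red marks the 7 genes that rose, blue the 3 that fell and grey the 35 that did not pass an adjusted p of 0.05.

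None of the 10 changes was large, and most calls depended on the full set of libraries. When each library was left out in turn, the count of members called higher ranged from 1 to 4 and the count called lower from 1 to 3. Calls kept from the main test were 1 to 3 higher and 1 to 2 lower, and the rest were gained. All genes called numbered 2890 to 3762 in these fits, beside 3969 in the main test. Without Vehicle replicate 3, for example, 1 member was called higher (Psmb4) and 1 lower (Psme4). Psme4 alone was called in all 16 alternatives that tested it. Apart from leave-outs, calls were lost with no filter for Psmb4, Psmc2, Psmd1, Psmd11 and Psmg1, and without the variance trend for Psmc2, Psmd1, Psmd3, Psmd11, Psme3 and Psmg1. Another scaling ended the calls of Psmd3, Psmd11 and Psme3 (common total), Psmd3 and Psmd11 (quantile) and Psmg1 (size factors).

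The alpha ring, encoded by Psma1 to Psma7, gave no call: 0 of 7 members changed, beside 37.4% of all genes tested. Of these 7, 0 had an unadjusted limma p below 0.05. Their median log2 fold change was 0.08. Psma1 stood at 62.0, 78.8 and 76.9 FPKM in vehicle and at 101, 61.0 and 80.5 FPKM in SAS (log2 fold change 0.13, 95% interval -0.19 to 0.45, limma adjusted p = 0.513). Its SAS values enclosed the vehicle values, with SAS replicate 1 the highest of all. Psma4 had the largest difference of the ring, at 93.7, 112 and 106 FPKM in vehicle and 138, 96.2 and 114 FPKM in SAS (log2 fold change 0.15, limma adjusted p = 0.305), and was called higher when SAS replicate 2 was left out (adjusted p = 0.0444). Psma7, the most abundant of the ring, averaged 312 ± 17.2 FPKM in vehicle and 308 ± 14.5 FPKM in SAS (mean ± SD of 3 libraries, the form used throughout).

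Among beta subunits, the catalytic ones differed by less than the spread between SAS replicates, and Psmb4 rose. Psmb5 (NCBI Gene 19173) encodes the subunit with chymotrypsin-like activity, the main target of proteasome inhibitor drugs. It stood at 226, 225 and 225 FPKM in vehicle and at 238.5, 225 and 217 FPKM in SAS. The SAS values lay on both sides of the vehicle values, and the log2 fold change was 0.01 (95% interval -0.11 to 0.13, limma adjusted p = 0.916). Psmb6, the caspase-like subunit, stood at 283, 265 and 280.0 FPKM in vehicle and at 289, 277 and 255 FPKM in SAS, so the groups overlapped (log2 fold change -0.01, 95% interval -0.14 to 0.12, adjusted p = 0.89). Psmb7, the trypsin-like subunit, stood at 308, 300.3 and 319 FPKM in vehicle and at 358, 286 and 292 FPKM in SAS (log2 fold change 0.01, 95% interval -0.17 to 0.18, adjusted p = 0.948). Its SAS replicate 1 was above every vehicle library and the other two were below every one. As fold changes, these limma intervals ran from 0.927 to 1.09 for Psmb5, from 0.905 to 1.09 for Psmb6 and from 0.891 to 1.13 for Psmb7.

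Of the structural beta subunits, 1 of 4 rose (25%), beside 18.9% of all genes tested. Psmb4 (NCBI Gene 19172) stood at 313, 273 and 312 FPKM in vehicle and at 379, 348 and 329 FPKM in SAS. All SAS libraries were above all vehicle libraries (log2 fold change 0.23, SE 0.07, limma adjusted p = 0.0245). This call was lost without Vehicle replicate 2 (adjusted p = 0.111), SAS replicate 1 (adjusted p = 0.0654) or SAS replicate 2 (adjusted p = 0.0502). Psmb3, the most abundant core subunit, had groups that did not overlap, at 505, 454 and 492 FPKM in vehicle and 610.0, 529.7 and 507 FPKM in SAS, but did not pass (log2 fold change 0.18, adjusted p = 0.0783). Psmb3 passed without SAS replicate 3 (adjusted p = 0.0406), with libraries scaled to a common total (adjusted p = 0.0392) and with quantile normalization (adjusted p = 0.0161). Psmb1 and Psmb2 had log2 fold changes of 0.10 and 0.05 and did not pass (adjusted p = 0.291 and 0.565). Psmb11, the subunit of the thymic cortex, was listed at 0.01 to 0.08 FPKM and was not tested.

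Promoter letters of core and activator genes were set beside these values, because NRF1 and NRF2 bind the antioxidant response element. RefSeq promoters of assembly GRCm38.p6, from 250 bases before to 50 after the start, were found for 40 of the 47 members. The element's core, TGACNNNGC on either strand, occurred in 6 of these 40 (15%) and in 16.8% of the 8604 tested genes with a promoter. The members with it were Psmb5, Psmb6, Psmc6, Psmd9, Psmd12 and Psme4. It was found in 0 of the 6 promoters of members that rose and in 1 of the 3 of members that fell. The CCAAT box, CCAAT on either strand, occurred in 15 of the 40 (37.5%) and in 43.3% of tested genes. Below, 120 bases before and 30 from the start are printed on the gene's strand for both catalytic genes with a match, for Psme4, the member with the largest fall, which carries it on the opposite strand, and for Psmb4, the member with the largest rise, which has none in its window. Capitals mark the match. The stretches are chr14:54617966-54618115 (minus strand), chr11:70525237-70525386 (plus), chr11:30771655-30771804 (plus) and chr3:94886929-94887078 (minus), in the order of the lines.
Psmb5: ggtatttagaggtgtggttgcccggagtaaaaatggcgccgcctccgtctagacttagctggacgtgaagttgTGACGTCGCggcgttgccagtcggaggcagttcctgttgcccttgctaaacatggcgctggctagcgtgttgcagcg
Psmb6: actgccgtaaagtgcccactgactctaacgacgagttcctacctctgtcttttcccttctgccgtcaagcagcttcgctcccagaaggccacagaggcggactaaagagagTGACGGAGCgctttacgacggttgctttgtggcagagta
Psme4: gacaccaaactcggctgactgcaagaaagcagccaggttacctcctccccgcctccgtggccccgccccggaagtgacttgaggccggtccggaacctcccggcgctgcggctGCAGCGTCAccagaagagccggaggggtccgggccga
Psmb4: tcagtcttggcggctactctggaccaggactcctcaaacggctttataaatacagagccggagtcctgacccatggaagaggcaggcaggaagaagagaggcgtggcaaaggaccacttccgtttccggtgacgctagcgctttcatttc
The match began 47 bases before the start in Psmb5, 9 before it in Psmb6 and 7 before it in Psme4. A match is a description of letters and not a binding site.

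The ATPase ring of the regulatory particle, Psmc1 to Psmc6, gave 1 rise among 6 (16.7%), beside 18.9% of all genes tested. Psmc2 stood at 86.4, 93.35 and 88.7 FPKM in vehicle and at 105, 97.8 and 97.6 FPKM in SAS, without overlap (log2 fold change 0.16, SE 0.06, limma adjusted p = 0.0411). Psmc2 lost its call without any of the libraries except Vehicle replicate 2 (adjusted p = 0.0553 to 0.157). Psmc6 was the least abundant ATPase gene by far and differed most, at 22.7, 27.8 and 26.7 FPKM in vehicle and 25.5, 18.1 and 19.8 FPKM in SAS (log2 fold change -0.28, SE 0.11, adjusted p = 0.0708). Here SAS replicate 1 fell inside the vehicle range and the other two SAS libraries below it. Without SAS replicate 1 the adjusted p of Psmc6 was 0.00433, without Vehicle replicate 1 it was 0.0403, and with libraries scaled to a common total 0.0438. Psmc1, Psmc3, Psmc4 and Psmc5 had vehicle means of 217.96 to 262.6 FPKM, log2 fold changes of -0.05 to 0.03, and overlapping groups.

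Of the 3 other members encoding the base, 2 rose (66.7%, beside 18.9% of all genes tested), and these were the large scaffolds. The ubiquitin receptor gene Adrm1, outside the name rule, is not among these 3 and did not pass (limma adjusted p = 0.054). Psmd2 (NCBI Gene 21762), which docks ubiquitin-like domains of shuttle proteins, stood at 149, 152 and 148 FPKM in vehicle and at 169, 179.6 and 160.3 FPKM in SAS (log2 fold change 0.18, SE 0.06, limma adjusted p = 0.0243). Psmd1, the other scaffold, stood at 33.4, 36.3 and 31.9 FPKM in vehicle and at 40.9, 37.1 and 38.1 FPKM in SAS (log2 fold change 0.19, SE 0.06, adjusted p = 0.0405). For both genes every SAS library was above every vehicle library. The call of Psmd2 was lost without any 1 of the vehicle libraries or SAS replicate 2 (adjusted p = 0.0563 to 0.0933), and that of Psmd1 without Vehicle replicate 1 or 3 or SAS replicate 1 or 3 (adjusted p = 0.0673 to 0.122). The ubiquitin receptor gene Psmd4 averaged 187 ± 4.40 FPKM with vehicle and, with SAS, 201 ± 9.46 FPKM, and did not pass (adjusted p = 0.159).

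Among the 8 members encoding the lid, which holds the deubiquitinase, 2 rose (25%) and 0 fell, beside 18.9% and 18.5% of all genes tested. Psmd3 stood at 196, 194 and 188 FPKM in vehicle and at 210.3, 219 and 209.6 FPKM in SAS (log2 fold change 0.14, SE 0.05, limma adjusted p = 0.0435). Psmd11, a lid subunit that contacts the core, stood at 76.5, 74.1 and 68.8 FPKM in vehicle and at 81.5, 83.5 and 79.4 FPKM in SAS (log2 fold change 0.16, SE 0.06, adjusted p = 0.0492). Groups did not overlap for either gene. The call of Psmd3 was lost in 5 of 6 leave-outs, all but that of SAS replicate 1 (adjusted p = 0.0719 to 0.13), and that of Psmd11 in all 6 (adjusted p = 0.0581 to 0.151).

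Psmd14, the deubiquitinase that releases ubiquitin chains during degradation, did not pass. It stood at 40.1, 44.7 and 42.8 FPKM in vehicle and at 45.3, 36.4 and 40.6 FPKM in SAS, with overlapping groups (log2 fold change -0.06, 95% interval -0.23 to 0.11, limma adjusted p = 0.552). Psmd8, the most abundant lid gene among the members, was lower in every SAS library. It stood at 464, 482 and 525 FPKM in vehicle and 454, 445 and 429.6 FPKM in SAS, yet missed the threshold (log2 fold change -0.14, limma adjusted p = 0.0788). The other lid members, Psmd6, Psmd7, Psmd12 and Psmd13, had log2 fold changes of -0.03 to 0.12 and did not pass. Psmd7 was higher in every SAS library, at 127 to 131 FPKM in vehicle and 134 to 145 FPKM in SAS. So was Psmd13, narrowly, at 116.96 to 128.66 FPKM in vehicle and 128.74 to 136.36 FPKM in SAS.

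Within each particle, subunits that are present in equal number in the protein complex differed widely in FPKM. The part of annotation and of reads shared with other genes in these differences was not tested. Core subunit genes ranged from 72.6 FPKM (Psma1) to 484 FPKM (Psmb3) in vehicle, a span of 6.66-fold, and the span was 6.8-fold in SAS. The 17 members of the regulatory particle ranged from 25.7 FPKM (Psmc6) to 490.3 FPKM (Psmd8) in vehicle, a span of 19.1-fold, and of 21.0-fold in SAS. Adrm1 and Sem1, counted below among factors outside the name rule, are left out of these ranges and of the sums that follow. Their vehicle means were 232 and 626 FPKM. The summed FPKM of the 14 core genes was 3128.5, 3006 and 3241 in vehicle and 3667, 3170 and 3125 in SAS. That of the 17 regulatory particle genes was 2593.5, 2594 and 2625.5 in vehicle and 2712.5, 2688 and 2521 in SAS. For both sums the vehicle range lay inside or overlapped the SAS range. Some narrower roles separated where these sums did not. Structural beta genes summed to 1186 to 1317 FPKM in vehicle and 1323 to 1544 FPKM in SAS. Scaffold and receptor genes of the base summed to 368 to 371 FPKM in vehicle and 389 to 426 FPKM in SAS. Core assembly chaperone genes summed to 139 to 148 FPKM in vehicle and, lower, 127 to 136.5 FPKM in SAS. The activator sum was also lower, at 272 to 279.6 FPKM in vehicle and 250.1 to 266 FPKM in SAS. Its largest part was Psme3, with means of 198 FPKM in vehicle and 178 FPKM in SAS. Psme4 also fell (4 and 3.02 FPKM), while the means of Psme1 (49.6 and 49.9 FPKM) and Psme2 (24.8 and 26.4 FPKM) did not. Sums overlapped for the alpha ring, catalytic beta, ATPase, lid and ATPase-ring chaperone genes. The separated sums include called genes, such as Psmb4, Psmd1, Psmd2, Psmg1, Psme3 and Psme4. Groups of single genes did not overlap for 24.5% (higher) and 24.9% (lower) of all genes tested. A sum of several genes is another measure, and no such share was computed for sums. All members together took 1.03 to 1.05% of a vehicle library's summed FPKM and 1.04 to 1.12% of a SAS library's.

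**Figure D3:**
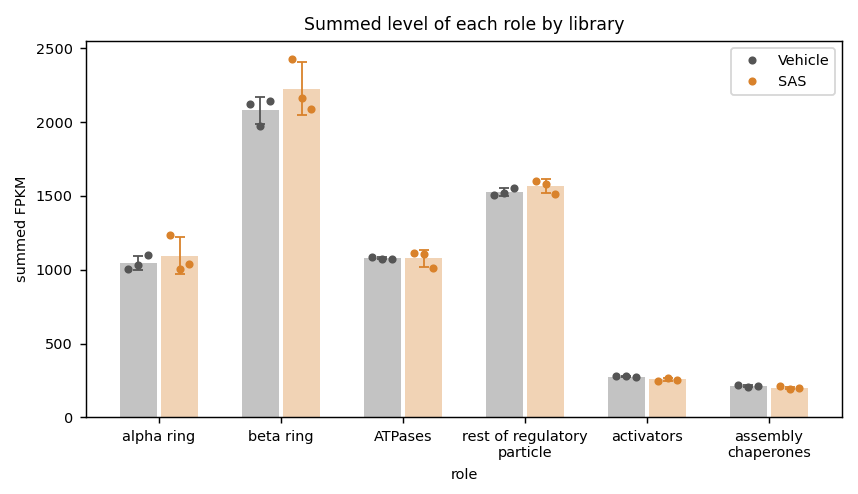
Summed FPKM of 6 groups of proteasome genes, some of which merge several roles, with 1 point per library, bars at the group mean and error bars of 1 SD (n = 3). Groups overlap for the alpha ring, beta ring, ATPases, rest of the regulatory particle and assembly chaperones. The activator sum is lower in every SAS library, at 250.1 to 266 beside 272 to 279.6 FPKM, and Psme3 is its largest part.

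SAS replicate 1 stood above the other SAS libraries across the core. It was the highest SAS library for 13 of the 14 core genes and for 30 of the 45 members tested (66.7%), beside 30.1% of all genes tested. With it, the median log2 fold change of the core genes was 0.08 and 12 of 14 values were positive. Without it, the median was -0.03 and 6 of 14 were positive, so the sign of the core's median rested on this library. For the regulatory particle the median was 0.03 with it and 0.02 without, and the called counts changed from 5 higher and 0 lower to 2 higher (Psmd2 and Psmd3) and 1 lower (Psmc6).

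**Figure D4:**
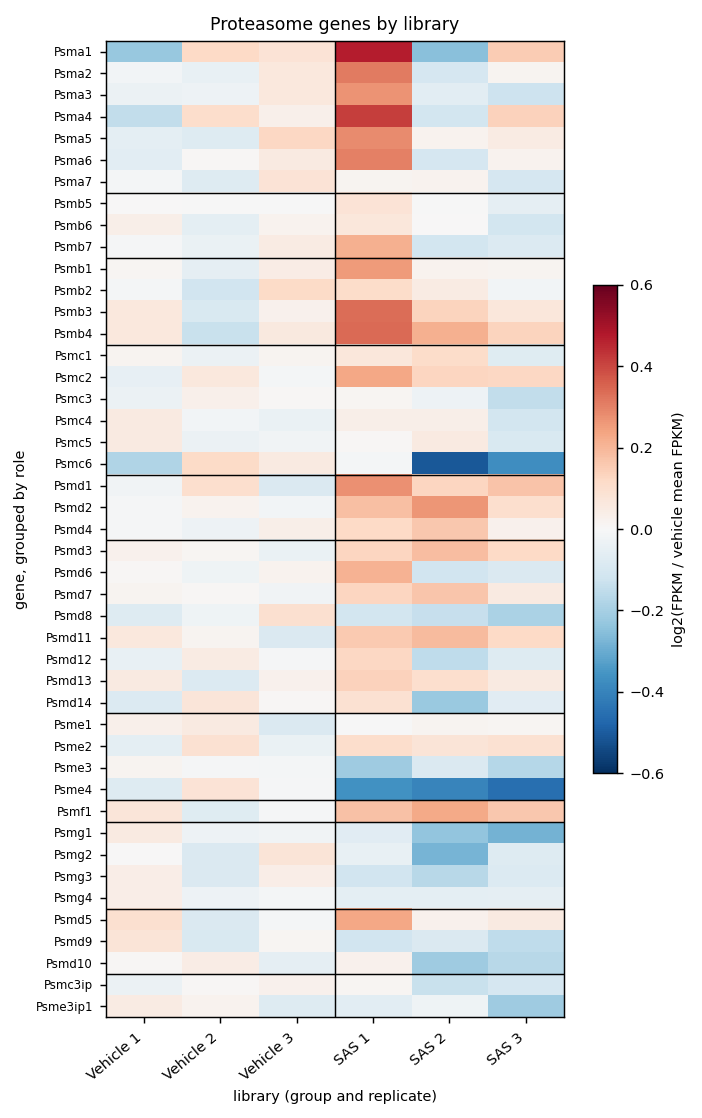
Level of each proteasome gene tested in each library, as log2 of FPKM over the vehicle mean, with roles separated by horizontal lines. SAS replicate 1 is the highest SAS library for 13 of the 14 core genes, whereas Psme4 is lower and Psmd2 and Psmf1 are higher in all 3 SAS libraries.

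Of the 4 tested activator genes, 2 fell (50%) and 0 rose, beside 18.5% and 18.9% of all genes tested. Psme4 (NCBI Gene 103554) encodes PA200, a large nuclear activator with a role in the degradation of acetylated histones. It stood at 3.79, 4.23 and 3.98 FPKM in vehicle and at 3.11, 3.04 and 2.92 FPKM in SAS, with every SAS library below every vehicle library (log2 fold change -0.31, SE 0.07, limma adjusted p = 0.00451). Across the leave-outs its adjusted p was 0.00803 to 0.0206. Psme3, which encodes a nuclear activator that degrades proteins without ubiquitin, stood at 201, 197 and 196 FPKM in vehicle and at 171, 186 and 176 FPKM in SAS, again without overlap (log2 fold change -0.16, SE 0.05, adjusted p = 0.0373). The call of Psme3 was lost without any 1 library other than SAS replicate 2 (adjusted p = 0.0592 to 0.123), with a common total and without the variance trend (adjusted p = 0.0713 and 0.0636).

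The cytoplasmic activator genes Psme1 and Psme2, which are interferon-inducible and shape peptides for MHC class I, did not pass. Psme1 stood at 50.6, 51.5 and 46.8 FPKM in vehicle and at 49.5, 50.3 and 50.03 FPKM in SAS (log2 fold change 0.01, 95% interval -0.11 to 0.13, limma adjusted p = 0.904). Psme2 stood at 23.8, 26.4 and 24.1 FPKM in vehicle and at 26.6, 26.1 and 26.4 FPKM in SAS (log2 fold change 0.09, 95% interval -0.04 to 0.22, adjusted p = 0.263). Both pairs of groups overlapped. Psme2b, a gene similar to Psme2, was listed at 0.05 to 0.54 FPKM and was not tested. Of the immunoproteasome subunits that replace the catalytic ones under interferon, Psmb8 and Psmb9 did not reach the mean of 0.5 FPKM required for testing. Psmb8 was listed at 0 in 5 of 6 libraries and at 0.02 FPKM in the other, and Psmb9 at 0.07 to 0.36 FPKM. Psmb10 was at 13.4, 14.1 and 13.9 FPKM in vehicle and at 12.8, 12.7 and 12.5 FPKM in SAS. Every SAS library was below every vehicle library, but Psmb10 did not pass (log2 fold change -0.12, adjusted p = 0.14). It was also below its constitutive counterpart Psmb7 in every library.

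Psmf1 (NCBI Gene 228769), which encodes PI31, a protein that inhibits the core in the test tube and helps transport proteasomes in neurons, rose. It stood at 32.3, 29.2 and 30.6 FPKM in vehicle and at 34.7, 36.0 and 34.4 FPKM in SAS, without overlap (log2 fold change 0.18, SE 0.06, limma adjusted p = 0.027). This call was lost without Vehicle replicate 2 (adjusted p = 0.11), Vehicle replicate 3 (adjusted p = 0.0553) or SAS replicate 2 (adjusted p = 0.0803).

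The 4 chaperones of core assembly, Psmg1 to Psmg4, all had negative log2 fold changes, and 1 fell (25%), beside 18.5% of all genes tested. Psmg1, which acts with Psmg2 as a scaffold for the alpha ring, stood at 51.0, 48.1 and 48.3 FPKM in vehicle and at 46.9, 41.6 and 40.4 FPKM in SAS, without overlap (log2 fold change -0.19, SE 0.06, limma adjusted p = 0.038). Psmg1 kept its call in 1 of 6 leave-outs, that of SAS replicate 1 (adjusted p = 0.00673), and lost it in the others (adjusted p = 0.058 to 0.137). Psmg2 stood at 22.4, 21.0 and 23.5 FPKM in vehicle and at 21.6, 18.4 and 21.1 FPKM in SAS, with overlap (adjusted p = 0.195). Psmg3 stood at 37.9, 34.7 and 37.9 FPKM in vehicle and at 34.0, 32.9 and 34.9 FPKM in SAS, also with overlap (adjusted p = 0.137). Psmg4, its partner in the other chaperone pair, stood at 36.4, 34.7 and 35.2 FPKM in vehicle and at 34.0, 34.0 and 34.2 FPKM in SAS (adjusted p = 0.434). Its groups did not overlap, but the difference was small (log2 fold change -0.05).

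The chaperones of the ATPase ring did not pass. Psmd5, Psmd9 and Psmd10 had log2 fold changes of 0.10, -0.11 and -0.11 and adjusted p of 0.277, 0.168 and 0.264 by limma. Both assembly chaperone groups together had a median log2 fold change of -0.11 over 7 genes, beside -0.01 over all genes tested. Pomp, the maturation factor of the beta ring, which has another name stem and is not a member, averaged 235 ± 11.3 FPKM in vehicle and 222 ± 19.8 FPKM in SAS (adjusted p = 0.353). The genes that matched by name alone, Psmc3ip and Psme3ip1, had log2 fold changes of -0.07 and -0.10 and did not pass.

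Genes that act with the proteasome were then counted by function. Of 12 tested proteasome-associated factors outside the name rule, 2 rose and 2 fell (16.7% each), close to the 18.9% and 18.5% of all genes tested. Uchl5, a deubiquitinase bound to the regulatory particle, stood at 16.3, 17.5 and 16.1 FPKM in vehicle and at 13.02, 13.4 and 10.75 FPKM in SAS, without overlap (log2 fold change -0.40, SE 0.08, limma adjusted p = 0.00333). Adrm1, the ubiquitin receptor that recruits Uchl5, had means of 232 ± 10.7 (vehicle) and 256 ± 1.34 FPKM (SAS) and did not pass (adjusted p = 0.054). Neither did Usp14, another deubiquitinase of the particle (17.4 ± 0.810 and 15.7 ± 0.966 FPKM, adjusted p = 0.121). Every SAS library was higher for Adrm1 and lower for Usp14. Adrm1 passed with size factors (adjusted p = 0.0417) and Usp14 with array weights (adjusted p = 0.036). Zfand5, which binds the regulatory particle and stimulates it, rose from 17.4 ± 0.495 to 21.7 ± 1.71 FPKM (adjusted p = 0.00533), and the arsenite-inducible Zfand2a rose from 8.80 ± 0.365 to 11.3 ± 0.881 FPKM (adjusted p = 0.0053). Akirin2, which brings proteasomes into the nucleus, fell from 52.7 ± 1.01 to 47.0 ± 2.89 FPKM (adjusted p = 0.0445). That call was lost without any 1 library other than SAS replicate 2 (adjusted p = 0.0571 to 0.136). It was also lost with no filter, with size factors, with a common total and without the variance trend (limma adjusted p = 0.0503 to 0.0913).

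Among 8 tested regulators of proteasome gene transcription, 3 rose (37.5%) and 0 fell, beside 18.9% and 18.5% of all genes tested, and the 3 were the small MAF genes. Maff stood at 5.31, 3.88 and 4.86 FPKM in vehicle and at 8.53, 6.73 and 6.62 FPKM in SAS, without overlap (log2 fold change 0.55, SE 0.11, limma adjusted p = 0.00298). Mafk rose from 10.8 ± 0.650 to 13.3 ± 1.11 FPKM (adjusted p = 0.0153) and Mafg from 30.8 ± 1.01 to 35.8 ± 2.61 FPKM (adjusted p = 0.0248). Without SAS replicate 2 only Maff kept its call (adjusted p = 0.0575 for Mafk and 0.0884 for Mafg). Mafk also lost it without Vehicle replicate 2 (adjusted p = 0.0653), and Mafg without Vehicle replicate 1 (adjusted p = 0.1) or SAS replicate 3 (adjusted p = 0.072). Nfe2l1 stood at 38.6, 43.6 and 44.0 FPKM in vehicle and at 42.9, 50 and 51.6 FPKM in SAS, with overlap (log2 fold change 0.19, adjusted p = 0.0771), and passed without SAS replicate 1 (adjusted p = 0.0113) and with array weights (adjusted p = 0.00837). Nfe2l2 stood at 33.2, 39.1 and 27.8 FPKM in vehicle and at 32.9, 38.8 and 36.0 FPKM in SAS, with overlap (adjusted p = 0.425). Both factors are also controlled at the protein level, which mRNA does not show.

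The polyubiquitin gene Ubb averaged 2495 ± 48.5 FPKM in vehicle and 2420.2 ± 71.7 FPKM in SAS (limma adjusted p = 0.591). In the list of shuttle receptors and the VCP segregase, which deliver substrates, 2 of 12 tested members rose (16.7%) and 1 fell (8.33%), beside 18.9% and 18.5% of all genes tested. Vcp, the ATPase that extracts ubiquitin-tagged proteins from complexes and membranes, stood at 153, 161 and 134 FPKM in vehicle and at 187, 184 and 172.5 FPKM in SAS, without overlap (log2 fold change 0.28, SE 0.07, adjusted p = 0.00903). Its cofactor gene Faf2 rose from 28.4 ± 0.156 to 34.05 ± 0.910 FPKM (adjusted p = 0.00369). The shuttle receptor gene Ubqln4 fell, from 75.4, 74.4 and 70.75 FPKM in vehicle to 53.4, 59.3 and 55.85 FPKM in SAS (log2 fold change -0.38, SE 0.06, adjusted p = 0.000499). Without SAS replicate 1 the list had 4 higher, and without SAS replicate 2 it had 2 lower.

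**Figure D5:**
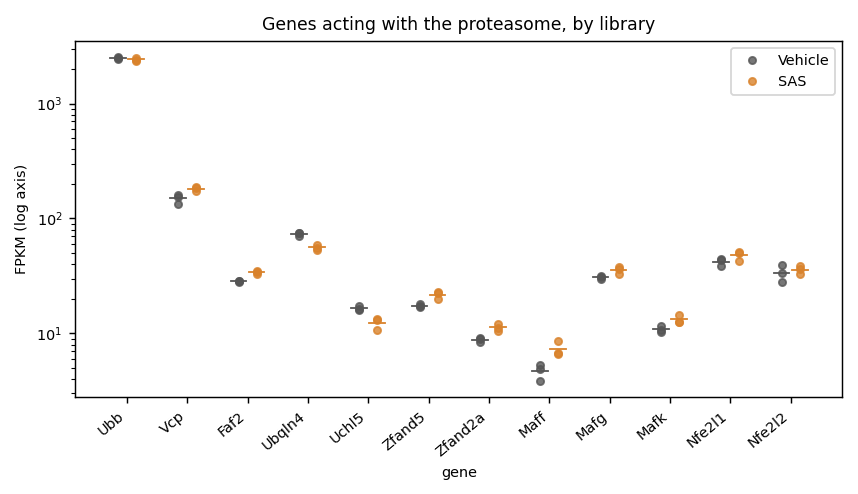
FPKM, on a log axis, of genes that act with the proteasome, with 1 point per library and a line at each group mean (n = 3). Vcp, Faf2, Zfand5, Zfand2a, Maff, Mafg and Mafk are higher and Ubqln4 and Uchl5 lower in all 3 SAS libraries, while groups overlap for Ubb, Nfe2l1 and Nfe2l2.

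RefSeq lists 6 pseudogenes named after 4 of the members, Psma5, Psmb5, Psmb6 and Psmb7, and the authors' handling of reads shared with such copies is not stated in the sources at hand. RefSeq genes overlapping another gene include 15 of the 47 members, among them Psme4 (Erlec1), Psmf1 (Tmem74b) and Psmd1 (Htr2b). Whether strand was used in counting is also not given.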

How the data were processed

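RNA was sequenced on BGISEQ-500, per the labels' protocols. Values were deposited by the authors as FPKM with 2 decimals, per the file headers. The submitters' processing notes list FastQC, HISAT and Bowtie2, giving neither version nor role; which program made the FPKM, with which build and annotation, is not given in the sources. Columns were matched to libraries by name, 24 h to SAS and 0 h, by elimination, to vehicle. Of 16315 gene identifiers, 16206 (99.3%) matched a symbol in RefSeq's GRCm38.p6 table; none of the others that GENCODE M21 names is a proteasome gene.

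The main test was limma 3.58.1 (R 4.3.3) fitted to log2(FPKM + 1) with a variance trend, over the 10615 genes averaging 0.5 FPKM or more, Benjamini-Hochberg adjusted at 0.05. This scale understates changes of low genes. Depth is unknown, so no counting interval was computed. Members and lists were chosen with earlier results of these data known. Named in full were up to 4 changed genes of each role or list with the largest absolute log2 fold change, plus, whatever their values, catalytic subunits, activators, Psmd14, Psmf1, Psmg1 to Psmg4 and list genes such as Nfe2l1, Pomp and Ubb. Psma1, Psma4, Psma7, Psmb3, Psmc6, Psmd4, Psmd7, Psmd8 and Psmd13 were added after their values were seen. Alternatives covered pseudocounts of 0.1 and 0.5, no filter and a filter at 5 FPKM, 3 other scalings, a replicate block, 3 other variance settings and each library left out. Python 3.11.15, pandas 2.3.3 and matplotlib 3.10.9 served for tables and plots. A gene of the ubiquitin list, and that list's counts, are not reported here.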

Additional observations from a re-analysis of the deposited data

How the results depend on the processing

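Of 17 alternatives to the main test, none reversed a called gene. The count of proteasome genes called higher was 7 in the main test, 3 with no filter, 3 with limma without the trend and 1 to 4 with each library left out. The count called lower was 3 in the main test, 1 with limma without the trend and 1 to 3 with each library left out. Other alternatives kept both counts within 1.5 times. All genes called numbered 3969 in the main test, 2890 to 3762 with each library left out and 2787 (with the 5 FPKM filter, which tests fewer genes) to 4779 (array weights) otherwise. Psme4 kept its call in the 16 alternatives that tested it; its level is under the 5 FPKM filter. The other 9 called members each lost the call in at least 3 alternatives, Psmd11 in 13. Of 35 members not called, 16 changed sign in some alternative, so no direction is read from them, and Psma4, Psmb3 and Psmc6 gained a call in some. With the 3 other scalings the median log2 fold change of all genes was -0.021 to -0.003, beside -0.014 in the main test. With a replicate block, 5 members were higher (Psmc2 and Psmd3 lost) and 3 lower, and the regulator gene Nfe2l1 passed (adjusted p = 0.0181); the same-numbered libraries' deviations correlated at -0.08, 0.145 and 0.234, and not every library correlated best with its own number, so replicate numbers were not taken as pairs. With fragments unknown, how depth limits each value cannot be given. The cause of the lost calls was not tested.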
